A study of Mus musculus with 32 samples.

Results

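Kat7, also called Hbo1, encodes a histone acetyltransferase, and this account describes its deletion by a tamoxifen-activated Cre in LSK cells of adult C57BL/6 mice. LSK cells are the bone marrow fraction that lacks lineage markers and carries Sca-1 and Kit, and it holds the hematopoietic stem cells and the multipotent progenitors. The comparison took 8 of the 32 RNA sequencing libraries of the series, chosen by their labels, with no expression value used in the choice. The 4 knockout libraries came from Hbo1 fl/fl mice with RosaCreERT2 (called CreER here) and tamoxifen, and the labels state that both alleles were deleted. The 4 control libraries came from Hbo1 fl/+ mice with CreER and tamoxifen, in which the titles state that the floxed allele was deleted. The protocol text calls the controls wild type and Cre expressing, so that their genotype rests on the titles and on the design text. All 8 mice therefore carried an induced Cre, and both groups held 3 females and 1 male per the labels. CreER acts throughout the body, so Kat7 was not deleted in blood cells alone. The sources used here give neither the interval between tamoxifen and sorting nor the age of the mice nor the floxed exons. Each library stands for 1 mouse. The other groups used below for comparison were LSK cells in which Mx1-Cre, induced with the interferon inducer polyIC, had deleted both alleles or 1 allele, and progenitor cells of the CreER mice described here.

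HBO1 is the catalytic subunit of complexes that hold ING4 or ING5, MEAF6 and a scaffold protein of the BRPF or JADE family. The scaffold directs the enzyme to lysines of histone H3, among them lysine 14, or of histone H4. In blood, acetylation by HBO1 has been tied to the upkeep of stem cells and of leukemia cells, and HOXA9 is among the genes named in that context. Per its title, the series asked how HBO1 bears on the quiescent state and the self-renewal of stem cells.

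Totals of the 8 libraries ran from 8503104 to 17663493 assigned reads, with a median of 11943514. Levels are given as CPM, the counts of a gene relative to the total of its library, scaled between libraries with TMM, the trimmed mean of M-values. They compare a gene between libraries, not with genes of another length. Kit was present at 316 to 445 CPM and Ly6a, which encodes Sca-1, at 51.6 to 121 CPM in the 8 libraries, and the ranges of knockouts and controls overlapped for both. Library knockout 2 was labelled female but held 226 CPM of Y-linked genes and 0.736 CPM of Xist, and knockout 3 was labelled male but held 0.175 CPM of Y-linked genes and 3586 CPM of Xist. The other 6 libraries, and the progenitor libraries of the same mice, matched their labels. Both libraries lacked Kat7, so an exchange between them leaves the groups as they are, and counts below are also given without them. Control 3 stood apart from the other controls. It held 258 CPM of F13a1, against 107 to 124 in the others, and its summed level of 21 mast cell, basophil and eosinophil genes was 2387 CPM against 1019 to 1282. In a principal component analysis of the 8 libraries, the leading component took 28.7% of the variance. Controls lay at -32.9 to -9.14 on it and knockouts at 0.102 to 41.8, with knockout 1 nearest to the controls and control 3 nearest to the knockouts.

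Kat7 (Entrez 217127, chromosome 11, 95271853 to 95310246 on mm10, protein coding), the deleted gene, was examined before the others. It was at 71.9, 76.1, 55.0 and 72.2 CPM in controls 1 to 4 and at 0.525, 0.873, 0.850 and 1.25 CPM in knockouts 1 to 4. The groups were far apart, and the log2 fold change, knockout over control, was -6.29 ± 0.19 (standard error, SE; edgeR quasi-likelihood test, Benjamini-Hochberg adjusted p = 1.72e-13). None of the 9 other subunits of HBO1 complexes passed the edgeR threshold of 0.05 (2 were higher at an unadjusted p under 0.05, and DESeq2 called 0). Jade2, a scaffold subunit, was at 67.9, 69.6, 55.0 and 66.9 CPM in controls and at 93.4, 75.6, 76.5 and 75.9 in knockouts, a log2 fold change of 0.31 ± 0.10 (edgeR adjusted p = 0.109). Brd1, which encodes the scaffold BRPF2, had a log2 fold change of 0.21 ± 0.08 (edgeR adjusted p = 0.180), and its groups did not overlap either. Brpf1 had one of 0.13 ± 0.12 (edgeR adjusted p = 0.628). None of 9 other histone acetyltransferases and none of 29 genes of the MLL, menin, DOT1L and Polycomb complexes passed in edgeR or DESeq2, with 1 and 2 of them higher at an unadjusted p under 0.05. Their median log2 fold changes were 0.18 and 0.04, against 0.01 over all genes.

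Most genes that passed the threshold after loss of Kat7 shifted by a moderate size. Their number depends on the test and on the libraries, and it is not a count of all genes that changed. Of 14102 genes tested, 445 passed an adjusted p of 0.05 (3.16%; 2498 at an unadjusted p under 0.05), 221 of them higher in the knockout (1.57%) and 224 lower (1.59%). Those that rose had a median change of 1.71-fold and those that fell one of 1.69-fold. DESeq2 called 889 of 13825 genes, 417 higher and 472 lower, and its list counts in this account stand beside these totals. List counts at an unadjusted p under 0.05 stand beside the 2498 of 14102. The 4 knockouts lay above the 4 controls, with no overlap, for 624 genes (4.42% of those tested) and below them for 714 (5.06%). Among the called genes this held for 182 of the 221 that rose and for 211 of the 224 that fell. Tested against a fold of 1.5 in place of no change, 6 genes passed, of which Nebl, Il22ra2, Atp1b1 and Gas7 were higher and Kat7 and Cyp2d22 lower.

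**Figure D1:**
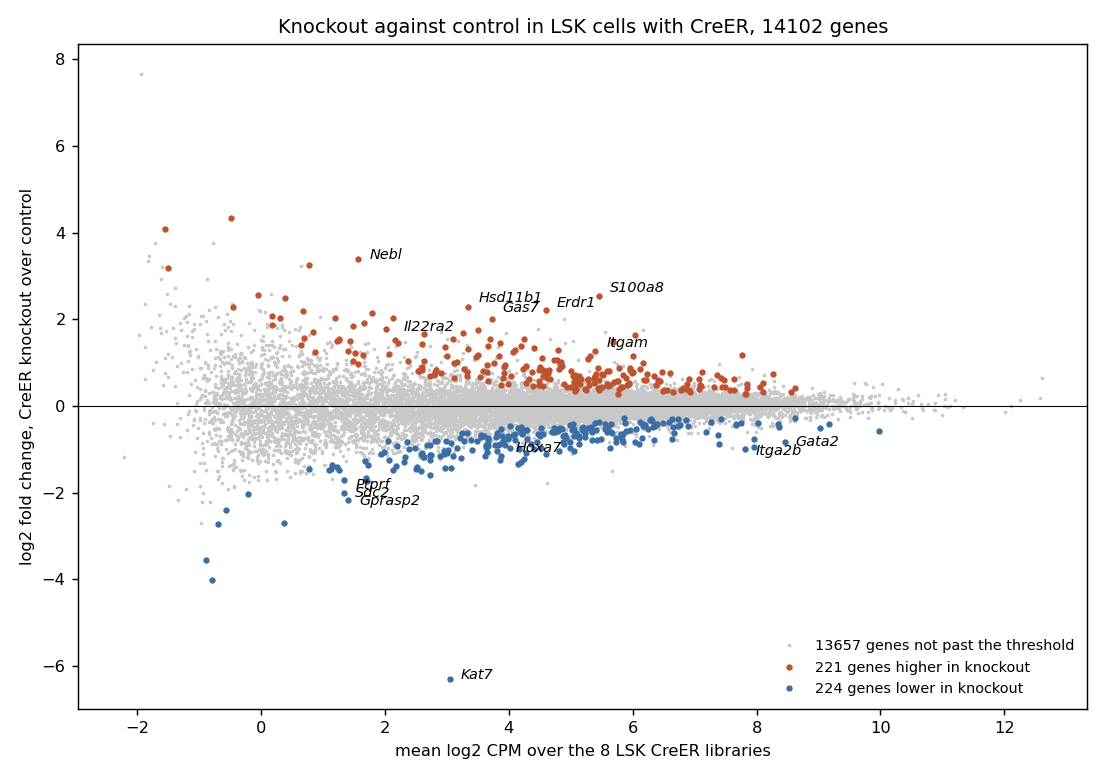
Each point is 1 of the 14102 genes tested, placed by its mean log2 CPM over the 8 LSK CreER libraries (horizontal) and its log2 fold change, knockout over control (vertical), with the 221 genes that rose and the 224 that fell in color. Kat7 lies alone at -6.29, and most called genes lie within 2 log2 units of 0.

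The number of called genes rested on which libraries entered the fit. Without knockouts 2 and 3, 33 genes passed, 20 higher and 13 lower, and all 33 were among the 445. All 445 kept the sign of their change without these 2 libraries. Leaving out each control in turn gave 235, 159, 521 and 215 called genes for controls 1 to 4. Leaving out each knockout in turn gave 714, 164, 330 and 196 for knockouts 1 to 4. A core of 131 genes, 65 higher and 66 lower, was called in all 8 of these fits, and all 445 genes kept their sign in each. The 445 were chosen by their difference in these same libraries, most of them with groups that do not overlap. Kept signs, here and without knockouts 2 and 3, were thus largely fixed in advance and support nothing. Of the 64 called genes named in this account, 18 stayed past the threshold without knockouts 2 and 3. They were Kat7, Nebl, Il22ra2, Atp1b1, Gas7, Nrp1, Dglucy, Man1c1, Itgam, Sirpa, Hoxa7, Hoxa9, Itga2b, Adam15, Ltbp3, Ppic, Il11ra1 and Zfp970. The other 46 missed it, with edgeR adjusted p from 0.0526 (Xdh) to 0.447 (Emcn).

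Nebl, which encodes the actin-binding protein nebulette, had the largest rise among the called genes with a mean of at least 1 on the log2 CPM scale. It was at 1.03, 1.17, 0.786 and 0.468 CPM in controls and at 7.95, 9.20, 10.8 and 7.63 CPM in knockouts. Each knockout held several times the level of each control, and the log2 fold change was 3.38 ± 0.38 (edgeR adjusted p = 0.000334). Il22ra2, the soluble decoy receptor of interleukin 22, was at 2.75, 2.14, 2.06 and 1.48 CPM in controls and at 7.50, 9.95, 8.84 and 7.63 CPM in knockouts. Its groups were equally distinct, with a log2 fold change of 2.02 ± 0.24 (edgeR adjusted p = 0.000398). Both genes are expressed at a low level in LSK cells. Gas7, which encodes an adaptor of the actin cytoskeleton, was at 4.23, 5.06, 11.2 and 6.86 CPM in controls and at 15.2, 34.8, 28.2 and 32.5 CPM in knockouts. The lowest knockout, library 1, was above the highest control, library 3, and the log2 fold change was 2.01 ± 0.30 (edgeR adjusted p = 0.00172). Atp1b1, a subunit of the sodium pump, rose from 6.20 ± 1.62 (SD, n = 4) to 20.8 ± 4.43 CPM, a log2 fold change of 1.75 ± 0.24 (edgeR adjusted p = 0.000918). All of Nebl, Il22ra2, Gas7 and Atp1b1 stayed past the threshold without each library in turn and without knockouts 2 and 3, with log2 fold changes of 3.19, 1.85, 1.79 and 1.67 in the last case.

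Several enzymes were among the genes that rose. Dglucy, a D-glutamate cyclase, was at 26.0, 24.2, 23.1 and 23.5 CPM in controls and at 38.6, 45.9, 45.6 and 39.5 CPM in knockouts. The spread within each group was small beside the gap, with a log2 fold change of 0.81 ± 0.09 (edgeR adjusted p = 0.000334). Man1c1, a mannosidase of the Golgi apparatus, rose with little spread, from 20.3 ± 2.52 to 39.4 ± 1.35 CPM (log2 fold change 0.96 ± 0.12, edgeR adjusted p = 0.000398). Hsd11b1, which regenerates active glucocorticoid, was at 2.75, 4.09, 6.38 and 6.55 CPM in controls and at 8.86, 40.1, 19.0 and 29.6 in knockouts. Its log2 fold change was 2.29 ± 0.38 (edgeR adjusted p = 0.00343), and knockout 1 was much closer to the controls than the other 3. Xdh, the xanthine dehydrogenase, rose from 11.4 ± 3.38 to 33.3 ± 9.98 CPM (log2 fold change 1.54 ± 0.23, edgeR adjusted p = 0.00156). Dglucy and Man1c1 were also called without knockouts 2 and 3, at 0.69 and 0.97. Hsd11b1 and Xdh were not, with edgeR adjusted p of 0.0623 and 0.0526. All 4 were called without each single library.

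**Figure D2:**
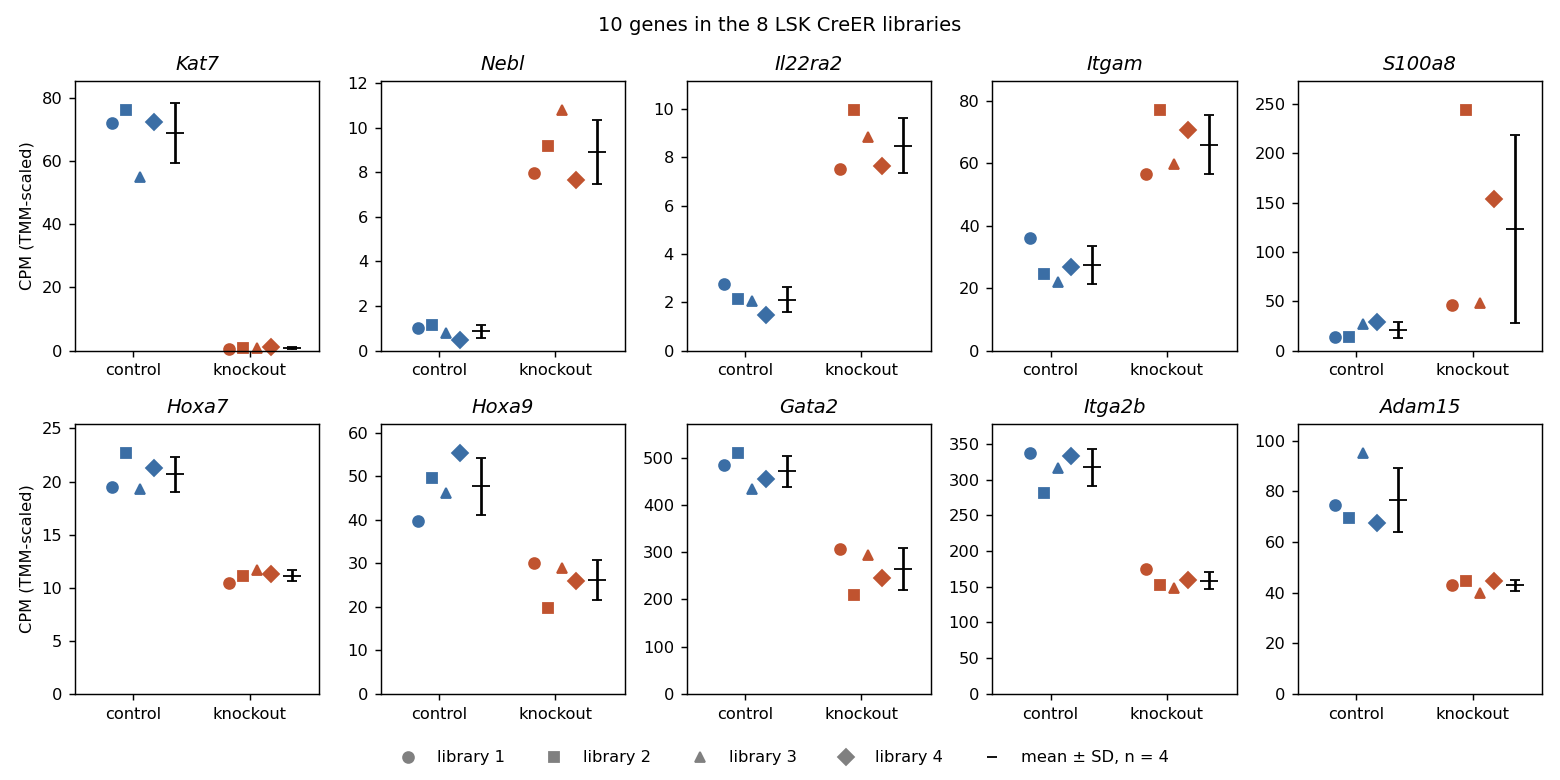
CPM (vertical, linear from 0) of 10 genes in the 4 control and 4 knockout libraries of LSK CreER cells, with 1 symbol per library number and the mean ± SD (n = 4) beside each group. Kat7 is near 0 in all knockouts, Nebl, Il22ra2, Itgam and S100a8 are higher and Hoxa7, Hoxa9, Gata2, Itga2b and Adam15 lower, with no overlap of the groups, and S100a8 ranges from 46.5 to 244 CPM within the knockouts.

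Receptors and adhesion molecules formed the list with the most risers. Of 39 adhesion and migration genes, 6 rose in edgeR (15.4%, against 1.57% of all genes) and 7 in DESeq2. None fell in either, and the median log2 fold change was 0.04. Nrp1, a neuropilin that serves as co-receptor for semaphorins and for vascular endothelial growth factor, was at 8.93, 8.47, 14.4 and 12.2 CPM in controls and at 26.6, 30.6, 24.3 and 25.9 CPM in knockouts. The lowest knockout was well above the highest control, and the log2 fold change was 1.28 ± 0.16 (edgeR adjusted p = 0.000398). The others included Itgam, the integrin subunit CD11b, Alcam, a cell adhesion molecule, Itgb3, an integrin beta subunit, and Plxnd1, a semaphorin receptor. Their log2 fold changes were 1.28, 0.79, 0.70 and 0.69. Nrp2, the other neuropilin, rose from 1.62 ± 0.557 to 6.11 ± 2.79 CPM (log2 fold change 1.91 ± 0.38, edgeR adjusted p = 0.0105). Flt1, a receptor of vascular endothelial growth factor, rose from 1.15 ± 0.468 to 4.75 ± 2.87 CPM (log2 fold change 2.03 ± 0.40, edgeR adjusted p = 0.0105), but knockout 1, at 1.65 CPM, was below control 4, at 1.79. Ncam1, a neural cell adhesion molecule, rose from 3.50 ± 0.725 to 11.03 ± 3.84 CPM (log2 fold change 1.66 ± 0.33, edgeR adjusted p = 0.00952), again with knockout 1 the lowest, at 5.33. Without knockouts 2 and 3, Nrp1 and Itgam of these genes stayed past the threshold. Without knockout 2 alone, Flt1 and Plxnd1 missed it, with edgeR adjusted p of 0.0508 and 0.0684.

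Of the neutrophil and the monocyte genes, 1 and 4 rose in edgeR (3.70% and 13.8%, against 1.57% of all genes), with a wide spread between mice. The calcium-binding protein gene S100a8, whose product is a main cytosolic protein of neutrophils, was at 14.1, 13.8, 27.2 and 29.1 CPM in controls and at 46.5, 244, 48.3 and 154 CPM in knockouts. All knockouts were above all controls, but knockouts 2 and 4 held over 3 times as much as knockouts 1 and 3. The log2 fold change was 2.54 ± 0.56 (edgeR adjusted p = 0.0194). S100a8 missed the threshold without control 1, control 2, knockout 2 or knockout 4, with an edgeR adjusted p of up to 0.0815, and without knockouts 2 and 3, at 0.124. S100a8 was the only one of 27 neutrophil granule genes to pass in edgeR, and DESeq2 called 5 of them higher, while 25 of the 27 had a positive value, 18 were higher at an unadjusted p under 0.05, and the median log2 fold change was 1.07 (0.01 over all genes). Ms4a3, a gene of granulocyte and monocyte progenitors, was at 104, 79.6, 210 and 120 CPM in controls and at 143, 343, 207 and 304 CPM in knockouts, and its groups overlapped (log2 fold change 0.96 ± 0.27, edgeR adjusted p = 0.0630). Lcn2, which encodes lipocalin 2 of specific granules, was at 9.63 to 18.0 CPM in controls and at 23.3, 101, 15.5 and 46.5 CPM in knockouts (log2 fold change 1.77 ± 0.57, edgeR adjusted p = 0.0978).

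The summed level of the 27 neutrophil granule genes shows how mice differed. It was 7049, 5382, 12039 and 7708 CPM in controls and 7497, 17312, 10460 and 14832 CPM in knockouts. Knockouts 2 and 4 were above all controls, knockout 1 was below control 4, and control 3 was above knockouts 1 and 3. Leaving out each library in turn, 0 to 5 members of the list were called higher, and the list's median ran from 0.59 to 1.40. The part that neutrophils passing the sort could have in this list was not tested. In bulk RNA, more cells of a type and more RNA per cell cannot be told apart.

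Of 29 monocyte and macrophage genes tested, 4 rose in edgeR and 5 in DESeq2, and none fell in either, with a median log2 fold change of 0.42. Itgam was at 35.9, 24.6, 22.0 and 26.8 CPM in controls and at 56.5, 77.1, 59.7 and 70.6 CPM in knockouts. Its groups were well separated, with a log2 fold change of 1.28 ± 0.17 (edgeR adjusted p = 0.000781), and it was called without each single library and without knockouts 2 and 3, at 1.22. CD11b is commonly among the lineage markers used to gate LSK cells, and the panel of this sort is not given in the sources used here. F13a1, which encodes a subunit of coagulation factor XIII, was at 121, 107, 258 and 124 CPM in controls and at 211, 502, 335 and 339 CPM in knockouts (log2 fold change 1.19 ± 0.26, edgeR adjusted p = 0.0180). Control 3 was above knockout 1, so the groups overlapped. Mrc1, the macrophage mannose receptor, stayed low, at 0 to 1.03 CPM in controls and 1.95 to 3.96 CPM in knockouts (log2 fold change 2.48 ± 0.51, edgeR adjusted p = 0.0125). Adgre1, which encodes F4/80, was at 0.458 to 3.73 CPM in controls and 3.68 to 7.51 CPM in knockouts, where the highest control again was library 3 (log2 fold change 1.51 ± 0.38, edgeR adjusted p = 0.0364). F13a1, Mrc1 and Adgre1 each missed the threshold without control 2 or knockout 2, F13a1 and Adgre1 also without control 1 or control 4, and Adgre1 also without knockout 3 or knockout 4, with edgeR adjusted p of up to 0.0763, 0.0512 and 0.143 for the 3 genes. Marco, a macrophage scavenger receptor of the list, had no count in any of the 8 libraries. The summed level of the list was 834, 696, 1476 and 896 CPM in controls and 1023, 2009, 1347 and 1472 CPM in knockouts, which overlapped through control 3.

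Other genes of immune cells rose as well. Sirpa, an inhibitory receptor of myeloid cells that binds CD47, was at 67.3, 62.7, 74.6 and 68.0 CPM in controls and at 97.4, 136, 115 and 121 CPM in knockouts. All knockouts were clearly above the controls (log2 fold change 0.78 ± 0.10, edgeR adjusted p = 0.000398), and Sirpa was called without knockouts 2 and 3 as well, at 0.67. Cd53, a tetraspanin of white blood cells, rose from 97.1 ± 17.3 to 151 ± 8.46 CPM (log2 fold change 0.63 ± 0.12, edgeR adjusted p = 0.00743). C3, complement component 3, was at 24.3 to 61.4 CPM in controls and at 54.4, 195, 100 and 153 CPM in knockouts, with control 3 above knockout 1 (log2 fold change 1.63 ± 0.32, edgeR adjusted p = 0.00918). Of 34 lysosome genes, 3 rose in edgeR (8.82%, against 1.57% of all genes) and 5 in DESeq2. None fell in either, at a median of 0.22. Those of edgeR were Man2b1, a lysosomal mannosidase (0.44 ± 0.07), Lipa, the acid lipase (0.52 ± 0.11), and Tfeb, a transcription factor of lysosomal genes (0.46 ± 0.12). The groups of the 3 edgeR calls were separate, and Man2b1 went from 225 to 231 CPM in controls to 288 to 336 in knockouts. Tfeb lost its call when almost any library was left out, with an edgeR adjusted p of up to 0.108, and Lipa did without knockout 2, at 0.0551.

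**Figure D3:**
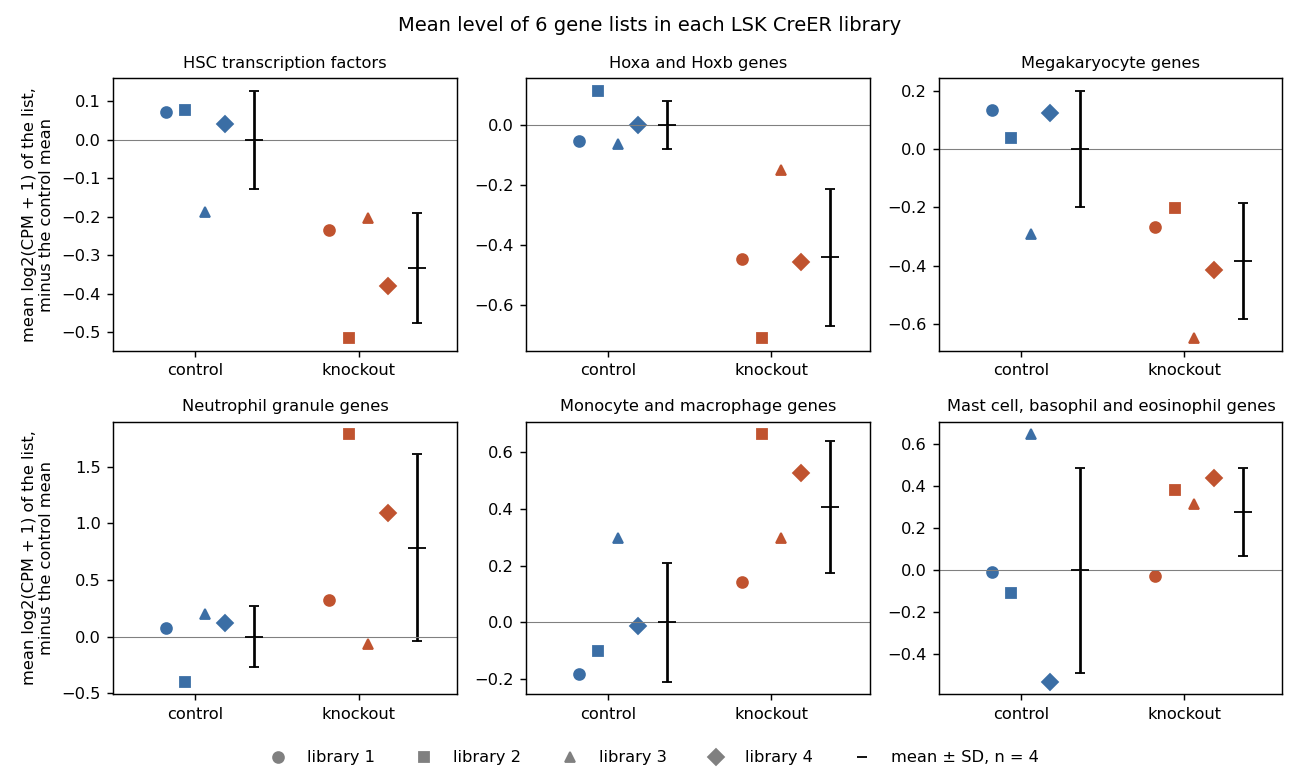
Mean log2(CPM + 1) over the tested genes of 6 lists in each library, minus the mean of the 4 controls (vertical), for controls and knockouts, with the mean ± SD (n = 4) of each group. Knockout 2 is lowest in the transcription factor and Hox lists and highest in the neutrophil and monocyte lists, and control 3 lies apart from the other controls in several panels.

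Of 29 stem cell transcription factor genes tested, 8 fell in edgeR (27.6%, against 1.59% of all genes) and none rose. DESeq2 called 11 lower and 1 higher, against 472 and 417 of 13825 over all genes. In all, 24 had a negative value, with a median log2 fold change of -0.39 against 0.01 over all genes. Gata2, a zinc finger factor required for stem cells, was at 484, 510, 433 and 456 CPM in controls and at 306, 210, 294 and 244 CPM in knockouts. The highest knockout was far below the lowest control, with a log2 fold change of -0.84 ± 0.15 (edgeR adjusted p = 0.00633). Mycn, a member of the MYC family, was at 33.6 to 49.6 CPM in controls and at 25.4, 11.3, 26.5 and 16.8 CPM in knockouts (log2 fold change -1.05 ± 0.24, edgeR adjusted p = 0.0257). Members that fell also included Hoxa9, Lmo2 and its partner Ldb1, which bridge DNA-binding factors in stem and erythroid cells, Nfe2, a factor of megakaryocytes and red cells, and Erg, an ETS factor. Lmo2, Ldb1, Nfe2 and Erg fell by 0.41, 0.39, 0.41 and 0.48 on the log2 scale, and Erg alone of the 8 had overlapping groups. Hoxa9 and Gata2 were called without each library in turn. Lmo2, Ldb1, Nfe2, Erg and Mycn each missed the threshold without control 2 or knockout 2, among others, with edgeR adjusted p of up to 0.0763, 0.105, 0.0906, 0.159 and 0.0825. The number of members that fell ran from 3 to 12 over these fits, and without knockouts 2 and 3 it was 1, Hoxa9, with a median of -0.31.

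Hox genes had negative values throughout. None of the 11 Hoxa and Hoxb genes tested had a positive value. In edgeR 2 fell (18.2%, against 1.59% of all genes), and the median log2 fold change was -0.65. Hoxa7 (Entrez 15404, chromosome 6, 52215623 to 52218573 on mm10) was at 19.5, 22.7, 19.2 and 21.3 CPM in controls and at 10.4, 11.1, 11.6 and 11.3 CPM in knockouts. The spread within each group was small, and the log2 fold change was -0.89 ± 0.13 (edgeR adjusted p = 0.00102). Hoxa9 (Entrez 15405, chromosome 6, 52223097 to 52227370), a homeodomain factor of stem cell self-renewal and of leukemia, was at 39.7, 49.7, 46.1 and 55.3 CPM in controls and at 30.1, 19.8, 29.0 and 25.9 CPM in knockouts. Its lowest control was above its highest knockout (log2 fold change -0.87 ± 0.13, edgeR adjusted p = 0.00173). Both were called without each library and without knockouts 2 and 3, at -0.93 and -0.77. Hoxa10 and Hoxa5 had log2 fold changes of -0.71 ± 0.25 and -0.70 ± 0.24 (edgeR adjusted p = 0.131 and 0.133), and their groups overlapped.

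The 250 bases before the start sites of the 5 genes that stand for the falls (Hoxa7, Hoxa9, Itga2b) and the myeloid rises (Itgam, S100a8) are shown because members of these groups moved together. They are read from RefSeq on GRCm38.p6, which is the mm10 assembly, 5′ to 3′ on the strand of the gene, and end at the base before the start site. Capitals mark matches to the short forms CCGGAA and GAGGAA of an ETS site, on either strand. The GATA forms AGATAA and TGATAA were searched as well and are in none of the 5. Other forms of a GATA site were not searched. Hoxa7 lies at chr6:52218574-52218823, Hoxa9 at chr6:52227371-52227620, Itga2b at chr11:102469884-102470133, Itgam at chr7:128062390-128062639 and S100a8 at chr3:90668821-90669070, the first 3 on the minus strand.
Hoxa7: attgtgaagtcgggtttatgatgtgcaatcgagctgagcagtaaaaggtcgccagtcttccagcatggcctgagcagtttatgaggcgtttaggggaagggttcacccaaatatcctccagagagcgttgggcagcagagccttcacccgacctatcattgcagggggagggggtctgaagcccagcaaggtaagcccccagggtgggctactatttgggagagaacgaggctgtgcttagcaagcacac
Hoxa9: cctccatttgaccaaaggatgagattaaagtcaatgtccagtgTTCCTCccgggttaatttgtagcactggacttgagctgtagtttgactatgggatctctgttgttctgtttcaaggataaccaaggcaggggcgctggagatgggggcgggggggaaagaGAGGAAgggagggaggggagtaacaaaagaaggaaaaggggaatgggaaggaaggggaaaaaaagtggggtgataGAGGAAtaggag
Itga2b: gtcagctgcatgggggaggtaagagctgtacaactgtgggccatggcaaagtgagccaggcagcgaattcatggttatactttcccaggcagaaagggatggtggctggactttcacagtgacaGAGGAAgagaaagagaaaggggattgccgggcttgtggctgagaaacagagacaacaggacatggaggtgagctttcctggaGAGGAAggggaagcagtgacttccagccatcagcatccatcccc
Itgam: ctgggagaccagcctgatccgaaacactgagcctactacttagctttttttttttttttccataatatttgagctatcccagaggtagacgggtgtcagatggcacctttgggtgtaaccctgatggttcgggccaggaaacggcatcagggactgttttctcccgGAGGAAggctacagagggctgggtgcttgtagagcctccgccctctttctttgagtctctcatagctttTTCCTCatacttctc
S100a8: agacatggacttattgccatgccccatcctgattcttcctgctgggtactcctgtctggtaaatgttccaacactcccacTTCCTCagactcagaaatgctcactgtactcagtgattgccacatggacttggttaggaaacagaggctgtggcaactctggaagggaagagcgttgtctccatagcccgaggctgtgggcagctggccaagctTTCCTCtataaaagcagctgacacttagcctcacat

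Matches in these stretches were 0 for Hoxa7, 3 for Hoxa9 and 2 each for Itga2b, Itgam and S100a8, so they were found before genes that fell and before genes that rose. Over whole promoter windows of 300 bases (250 before to 50 after the start site), 48.0% of 10394 tested genes with an entry held such an ETS form, as did 44.8% of 163 genes that rose and 32.7% of 165 genes that fell. A GATA form was in 10.5% of all, in 14.1% of those that rose and in 12.7% of those that fell. A TATAAA box was in 7.07%, 11.7% and 4.85%. Promoters poor in CpG, with an observed over expected ratio under 0.4, made up 16.9% of all, 30.7% of those that rose and 27.9% of those that fell, while the median GC content was 60.7%, 59.7% and 59.3%. A match is only a match of letters, and no binding was measured.

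Of megakaryocyte and long-term stem cell genes, 14.3% and 8.33% passed in edgeR, against 3.16% of all genes. Itga2b (Entrez 16399), which encodes the integrin subunit CD41 of platelets and of early stem cells, was at 337, 281, 316 and 334 CPM in controls and at 175, 152, 149 and 159 CPM in knockouts. No knockout came near a control, and the log2 fold change was -0.999 ± 0.116 (edgeR adjusted p = 0.000334), the lowest adjusted p of a gene that fell, after Kat7. Itga2b lies on chromosome 11 from 102453297 to 102469883, within 10 Mb of Kat7. Of 21 megakaryocyte genes 2 fell in edgeR, Itga2b among them (8 in DESeq2, and 2 to 6 in edgeR without 1 library), 1 rose, and the median log2 fold change was -0.50, with 18 negative values and 10 lower at an unadjusted p under 0.05. The riser was Itgb3, whose product pairs with CD41 on platelets, at 27.7 to 36.3 CPM in controls and 50.1 to 59.4 CPM in knockouts (log2 fold change 0.70 ± 0.14, edgeR adjusted p = 0.0105). Itgb3 and Itga2b thus changed in opposite directions in all 4 knockouts. Of 24 long-term stem cell markers 2 fell in edgeR, among them Adgrg1, an adhesion receptor that also goes by Gpr56, and none rose. DESeq2 called 5 of these markers lower, against 472 of 13825 over all genes, and edgeR without 1 library 1 to 6. Adgrg1 was at 1058 to 1378 CPM in controls and 626 to 1054 CPM in knockouts, which barely parted (log2 fold change -0.56 ± 0.15, edgeR adjusted p = 0.0428), and it kept its call in 2 of the 8 fits without 1 library, with an edgeR adjusted p of up to 0.142 in the others. Tek, the angiopoietin receptor TIE2, and Eng, endoglin, had values of -1.09 ± 0.32 and -0.40 ± 0.13 (edgeR adjusted p = 0.0720 and 0.0876). Itga2b was called without knockouts 2 and 3, at -0.93.

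Further falls involved the matrix, signaling and the surface of the cell. Gprasp2, a protein that binds G protein-coupled receptors, was at 3.78, 4.96, 7.27 and 5.38 CPM in controls and at 1.05, 1.63, 0.935 and 1.09 CPM in knockouts, the largest fall after Kat7 among called genes with a mean of at least 1 on the log2 CPM scale (log2 fold change -2.16 ± 0.38, edgeR adjusted p = 0.00521). Adam15, a membrane metalloproteinase, was at 74.6, 69.4, 95.1 and 67.6 CPM in controls and at 42.9, 44.5, 39.9 and 44.6 CPM in knockouts. The knockouts were nearly equal and all below the controls (log2 fold change -0.83 ± 0.10, edgeR adjusted p = 0.000398). Ltbp3, which binds latent transforming growth factor beta in the matrix, was at 71.1, 73.1, 67.4 and 72.2 CPM in controls and at 43.4, 32.4, 45.6 and 38.2 CPM in knockouts (log2 fold change -0.83 ± 0.11, edgeR adjusted p = 0.000918). Ppic, cyclophilin C, fell from 35.6 ± 5.87 to 16.6 ± 2.11 CPM (log2 fold change -1.10 ± 0.15, edgeR adjusted p = 0.000918). Il11ra1, the receptor chain of interleukin 11, fell from 28.2 ± 5.64 to 13.4 ± 2.79 CPM (log2 fold change -1.07 ± 0.16, edgeR adjusted p = 0.00158). Adam15, Ltbp3, Ppic and Il11ra1 had separate groups, were called without each library in turn, and were called without knockouts 2 and 3. Ptprf, a receptor tyrosine phosphatase, and Sdc2, syndecan-2, fell to low levels, from 4.39 ± 1.501 to 1.35 ± 0.348 CPM and from 5.28 ± 2.09 to 1.30 ± 1.01 CPM (log2 fold changes -1.71 ± 0.35 and -2.01 ± 0.53, edgeR adjusted p = 0.0133 and 0.0431). Ptprf missed the threshold without control 1 or knockout 2, with edgeR adjusted p of up to 0.0638, and Sdc2 kept its call in 1 of the 8 fits without 1 library. The zinc finger genes Zfp970 and Zfp820 fell from 14.0 ± 0.854 to 6.16 ± 1.35 CPM and from 13.4 ± 0.595 to 5.003 ± 0.667 CPM, with log2 fold changes of -1.19 and -1.42. Both belong to a large family, as does Cyp2d22, so their counts may depend on how reads of near copies were assigned.

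Of 44 receptors of cytokines and growth factors, 3 rose and 3 fell in edgeR, with a median of 0.10. The share called was 13.6%, against 3.16% of all genes. The risers were Il22ra2, Il6ra, the interleukin 6 receptor (0.64 ± 0.12, edgeR adjusted p = 0.00798), and Tgfbr1, a receptor of transforming growth factor beta (0.48 ± 0.12, edgeR adjusted p = 0.0318). Il6ra was at 44.1 to 56.6 CPM in controls and 68.2 to 87.1 CPM in knockouts. Members that fell included Pdgfrb, a receptor of platelet-derived growth factor (-0.96 ± 0.21, edgeR adjusted p = 0.0195), and Tgfbr3, betaglycan (-0.78 ± 0.19, edgeR adjusted p = 0.0293). Tgfbr1 and Tgfbr3 each kept their call in under 4 of the 8 fits without 1 library, with edgeR adjusted p of up to 0.117 and 0.0941, and Pdgfrb lost it without control 2, control 4 or knockout 2, with up to 0.0739. Of 20 genes of STAT5 and cytokine response, 15% were called in edgeR, against 3.16% of all genes. Il6ra and Lifr, the receptor of leukemia inhibitory factor, rose and Stat5a fell. Stat5a, a transcription factor that cytokine receptors activate, was at 143, 146, 121 and 147 CPM in controls and at 101, 96.5, 101 and 108 CPM in knockouts (log2 fold change -0.46 ± 0.09, edgeR adjusted p = 0.00778), with no overlap. Stat5a also lies on chromosome 11 within 10 Mb of Kat7. In that window 10 of 254 tested genes were called (3.94%), 3 higher and 7 lower, against 3.16% over all genes.

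Genes of the cell cycle, of growth and of stress showed few calls. Over all genes, 2498 of 14102 had an unadjusted p under 0.05. Of 49 S phase genes 2.04% passed in edgeR, against 3.16% of all genes, while DESeq2 called 1 higher and 1 lower. The only one to pass in edgeR was Ccne1, cyclin E1, which acts at entry into S phase. It was at 33.0, 34.3, 35.1 and 29.8 CPM in controls and at 52.4, 52.8, 51.9 and 48.8 CPM in knockouts, and the groups were tight and separate (log2 fold change 0.64 ± 0.12, edgeR adjusted p = 0.00723). It was called without each single library, and without knockouts 2 and 3 its value was 0.61 (edgeR adjusted p = 0.121). None of 56 G2 and M phase genes passed in edgeR or DESeq2 (2 higher at an unadjusted p under 0.05), at a median of 0.14. None of 25 p53 target genes passed in either (1 higher and 1 lower at an unadjusted p under 0.05), at a median of -0.02. Of 13 BCL2 family genes, 7.69% were called, against 3.16% of all genes. Bid rose (0.37 ± 0.10, edgeR adjusted p = 0.0476), and it kept that call in 2 of the 8 fits without 1 library. Of 32 genes of quiescence and niche response, Tgfbr1 rose in edgeR, and the share called was 3.125%, against 3.16% of all genes. DESeq2 called 4 higher, 7 were higher and 3 lower at an unadjusted p under 0.05, and the median was 0.03. None of 31 ribosome biogenesis genes (median -0.06; 2 higher and 4 lower at an unadjusted p under 0.05, and 1 called by DESeq2) and none of 21 glycolysis genes (median 0.11; 3 higher and 2 lower at an unadjusted p under 0.05, and 2 called by DESeq2) passed in edgeR.

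Genes of oxidative phosphorylation had small positive values. Of 37 genes of complex I, 34 were above 0, at a median of 0.15, and none passed in edgeR or DESeq2 (4 higher at an unadjusted p under 0.05). Of 39 genes of the other complexes, 34 were above 0, at a median of 0.20, and 15 were higher at an unadjusted p under 0.05. In edgeR 2.56% of them were called, against 3.16% of all genes. Cox6c, a subunit of cytochrome c oxidase, passed, at 44.1 to 65.2 CPM in controls and 65.7 to 81.4 in knockouts (log2 fold change 0.52 ± 0.14, edgeR adjusted p = 0.0435). Its groups touched at control 3 and knockout 3, and it kept its call in 1 of the 8 fits without 1 library.

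**Figure D4:**
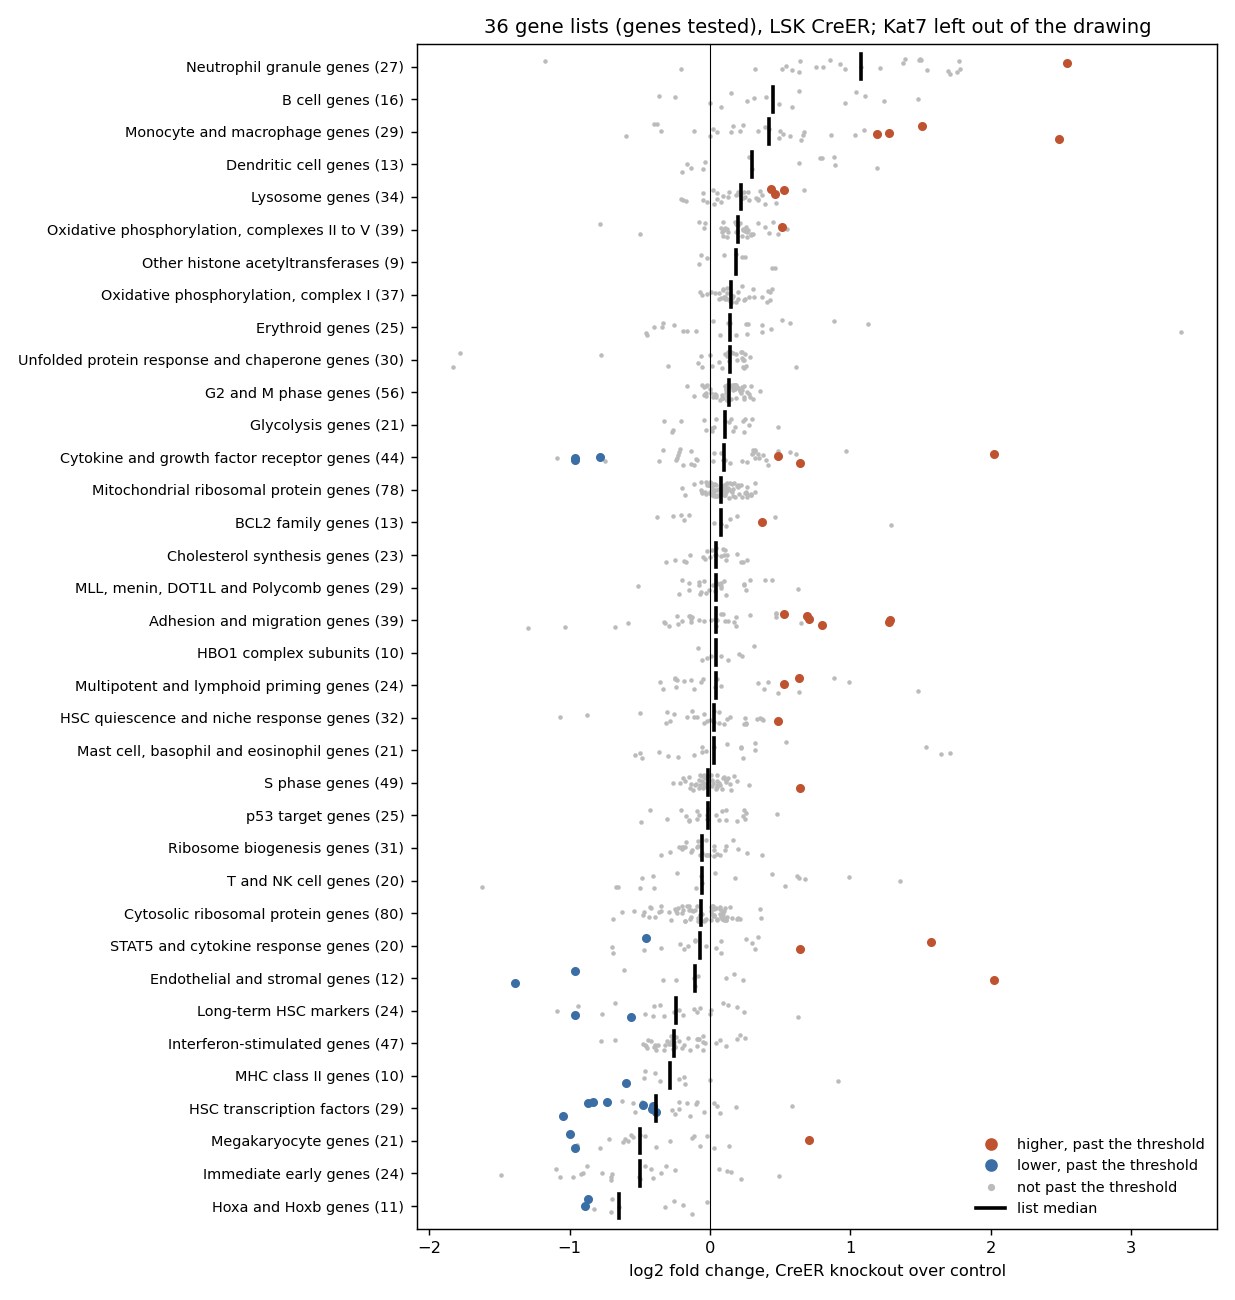
Log2 fold change, knockout over control (horizontal), of the tested genes of 36 lists, ordered by the list median (black bar), with called genes in color and the number tested in parentheses. The neutrophil list has the highest median, 1.07, with 1 called gene, and the Hoxa and Hoxb list the lowest, -0.65, with 2.

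Interferon-stimulated genes, which bear on the comparison with polyIC below, were not called. None of 47 passed in edgeR, 7 were lower at an unadjusted p under 0.05, and DESeq2 called 1. Of the 47, 41 had a negative value and 6 a positive one. Their median was -0.26 with all libraries, -0.37 to -0.09 without 1 library and -0.04 without knockouts 2 and 3. Of 24 immediate early genes, none passed in edgeR (1 higher and 7 lower at an unadjusted p under 0.05, 2 called by DESeq2), at a median of -0.50. Egr1, an early response factor linked to quiescence, was at 55.4, 25.7, 17.8 and 51.2 CPM in controls and 24.7, 11.5, 14.5 and 20.9 CPM in knockouts, and the groups overlapped (log2 fold change -1.07 ± 0.37, edgeR adjusted p = 0.124). The summed level of the immediate early list was 907 to 3006 CPM in controls and 711 to 1384 CPM in knockouts, with control 4 alone above 1384.

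Among lists of other cell types, none of 25 erythroid, 21 mast cell, basophil and eosinophil, 13 dendritic, 16 B cell and 20 T and NK cell genes passed in edgeR. At an unadjusted p under 0.05 the counts of higher and lower members were 3 and 1, 4 and 2, 3 and 0, 1 and 1, and 1 and 2, and DESeq2 called 1, 0, 1, 1 and 2. The summed level of B cell genes was highest in control 3, at 620 CPM, and in knockout 3, at 824 CPM, against 159 to 358 in the other 6. The T and NK cell sum was 179 to 239 CPM in all 8 libraries, with Cd3e under 1 CPM in each. Of 12 endothelial and stromal genes tested, 25% were called in edgeR, against 3.16% of all genes. Flt1 rose and Pdgfrb and Emcn, endomucin, fell, while Cdh5 and Col1a1, which define those cells, were under 1 CPM in all 8 libraries. Of 10 MHC class II genes, 10% were called, against 3.16% of all genes. H2-Ob, a subunit of the HLA-DO counterpart, fell (-0.60 ± 0.15, edgeR adjusted p = 0.0351). Emcn and H2-Ob kept their calls in 1 of the 8 fits without 1 library. Erdr1, a gene of the region shared by the X and Y chromosomes with near copies, was at 6.58 to 17.1 CPM in controls and at 19.8, 30.4, 73.6 and 115 CPM in knockouts (log2 fold change 2.21 ± 0.58, edgeR adjusted p = 0.0455), and it also kept its call in 1 of those fits.

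The 445 genes were spread over the genome. The share called was 1.90% to 4.72% on the autosomes and X, with the lowest on chromosome 18 and the highest on X. Median exon length was 3348 bases for genes that rose, 2535 for those that fell and 2619 for all tested. Control 3 alone of the 8 libraries had a falling level with exon length, a slope of -0.0805 log2 CPM per doubling of length against 0.0143 to 0.0988 in the others, and with this trend removed 662 genes were called. The median level in controls was 20.6 CPM for genes that rose, 29.1 CPM for those that fell and 30.6 CPM for all.

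The change was then compared with that after deletion by Mx1Cre and polyIC, which used its own mice and controls. The Cre, the inducing agent and the mice differed together and cannot be told apart. Of the 221 genes that rose with CreER, 193 were above 0 with Mx1Cre and 120 were called higher there (54.3%), against 15.2% of all genes called higher with Mx1Cre. They were 5.605% of the 2141 called higher with Mx1Cre. Of the 224 that fell, 219 were below 0 with Mx1Cre and 177 were called lower there (79.0%), against 15.9% of all genes and as 7.91% of the 2237 called lower. The median log2 fold change with Mx1Cre was 0.45 for the risers and -1.05 for the fallers, where with CreER it was 0.78 and -0.76. The genes were chosen by their CreER values, which enlarges the CreER medians. Klrb1f, Papss2 and Ptpro, named after their values were seen, were called in opposite directions, higher with CreER (1.03, 1.01 and 1.25) and lower with Mx1Cre (-0.58, -0.66 and -0.73).

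The difference between the effects in the 2 Cre lines was itself tested and passed for 616 genes (4.37%). Of these, 519 were lower with Mx1Cre relative to CreER and 97 higher. Levels fell with exon length in Mx1Cre knockouts 1, 3 and 4 (-0.101, -0.144 and -0.157 in the unit given above). The same measure was 0.0076 in Mx1Cre knockout 2 and 0.00895 to 0.0427 in the Mx1Cre controls. This trend was not removed for the Cre line difference, so its part in the 616 genes was not tested. Without CreER knockout 3 the count was 386, and without CreER knockouts 2 and 3 it was 310. The difference passed for 24 of the 221 risers, of which 22 were lower with Mx1Cre. It passed for 61 of the 224 fallers, of which 60 were lower still with Mx1Cre. Both sets were chosen by their CreER values, which also enter the difference. That choice alone pulls the difference down for risers and up for fallers. Hoxa9 differed by -0.74 ± 0.19, Ppic by -2.56 ± 0.23 and Ptprf by -4.89 ± 0.80, each lower with Mx1Cre. The difference of Zfp970 was -4.21 ± 0.32 and that of Ica1, which fell by 0.69 with CreER, was -2.33 ± 0.18, the 2 lowest p among genes lower with Mx1Cre. Among risers, Atp1b1 (-1.22 ± 0.33) and Il6ra (-0.86 ± 0.17) were less raised or not raised with Mx1Cre. For Nebl, Il22ra2, Nrp1, Dglucy and Man1c1 the difference did not pass, with values of -0.48 ± 0.51, -0.32 ± 0.33, 0.03 ± 0.22, 0.02 ± 0.13 and -0.16 ± 0.17. Gata1, a red cell and megakaryocyte factor, was at -0.46 with CreER (edgeR adjusted p = 0.251) and at -2.32 with Mx1Cre, a difference of -1.87 ± 0.31. The 6 lowest p among genes higher with Mx1Cre were those of Slc6a9, a glycine transporter (2.26 ± 0.31), the ETS factors Etv4 (5.12 ± 0.78) and Etv5 (1.36 ± 0.21), Snap47 (0.997 ± 0.157), Ccnd1, cyclin D1 (1.56 ± 0.26), and Trp53i11 (1.49 ± 0.26). None of these 6 was called with CreER.

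**Figure D5:**
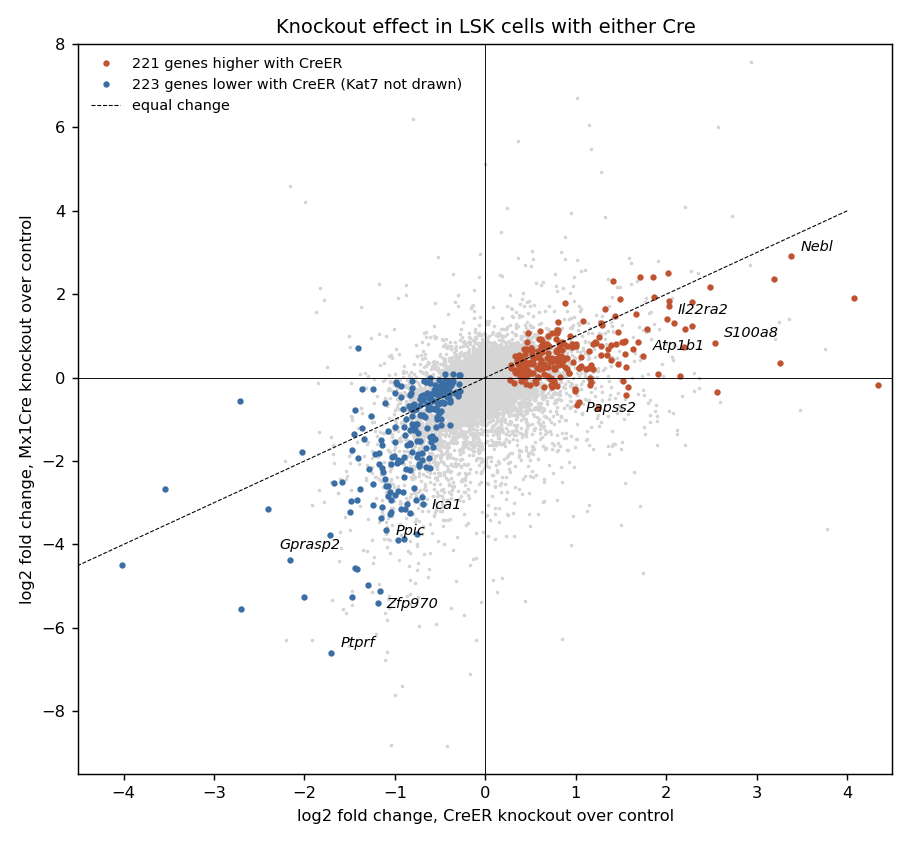
Log2 fold change, knockout over control, of the tested genes with CreER (horizontal) and with Mx1Cre (vertical) in LSK cells, with genes called with CreER in color and a dashed line of equal change. Of the 224 fallers 219 lie below 0 with Mx1Cre, with Ptprf at -1.71 and -6.59, and 2 genes, Kat7 and Igkv4-58, lie outside the axes.

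In progenitor cells of the CreER mice the change was smaller in count. Of 13478 genes tested in both populations, 23 were called there (0.171%). Standard errors differed between the 2 fits. They were larger in progenitors for Itga2b (0.25 against 0.12), Itgam (0.54 against 0.17) and Gata2 (0.32 against 0.15), and smaller for Sdc2 (0.42 against 0.53). The part of this precision in the counts was not tested. Risers and fallers below were chosen by their LSK values, not by their progenitor values. Of 220 LSK risers with a progenitor value, 185 were above 0 and 3 were called higher, and of 212 fallers 204 were below 0 and 12 were called lower, with median log2 fold changes of 0.25 and -0.58. Ppic (-1.86), Adam15 (-1.19), Ltbp3 (-1.09), Hoxa9 (-1.16), Il11ra1 (-1.41) and Sdc2 (-2.35) were among those called in progenitors, and Nebl (2.34) among those that rose. The difference between the populations was called for 1 gene, Tmem119, a transmembrane protein, at 0.71 in LSK cells and -0.67 in progenitors. At an unadjusted p under 0.05 it held for 533 genes, DESeq2 called 13, edgeR with the mouse as a block called 11, or 43 after exchanging knockouts 2 and 3 of the LSK cells, and without knockouts 2 and 3 edgeR called 0, with 381 at an unadjusted p under 0.05. The same mice gave both populations, so the LSK and progenitor values are not independent.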

How the data were processed

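TruSeq libraries from 50 ng RNA of sorted LSK and progenitor cells were read as 80 bp pairs on a NextSeq500, per the labels' protocols. The deposited values are whole-number counts of reads per gene for 27179 genes, not normalized. Per the submitters' processing notes the authors counted with featureCounts on mm10. The sources used here name no version, aligner, gene annotation or strand setting, so overlapping, antisense and near-identical genes may share counts. Symbols were matched for 25275 genes in a RefSeq table of the same build. The others held 3.92% of the counts.

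One quasi-likelihood fit (edgeR 4.0.16, R 4.3.3) took all 16 LSK libraries. Scaling was by TMM, the default filter asked for 10 counts in enough libraries and for 15 over all, and p-values were adjusted by Benjamini-Hochberg over the 14102 genes left, at a threshold of 0.05. Standard errors come from the same fit. The difference between Cre lines was an interaction in this fit, and that between populations an interaction over all 32 libraries. Depth limits genes of low counts, and counting error alone understates the noise of reads that carry no molecular identifier. Labels give separate mice. Whether replicate numbers pair mice was checked. Deviations of same-numbered controls and knockouts correlated at 0.218, -0.179, -0.00938 and 0.0539 with CreER. After exchanging CreER knockouts 2 and 3, control 2 with knockout 3 gave 0.167 and control 3 with knockout 2 gave -0.00517. With Mx1Cre they correlated at 0.194, 0.258, 0.209 and 0.147, all positive. The CreER values did not settle whether the numbers pair mice, and no pairing was used in the fit. A replicate block, with the numbers as labelled, is given as an alternative. The code was tested on simulated data.

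The 36 gene lists and the rule for named genes were written with earlier results of these data known, and support nothing independently. Named genes were HBO1 complex subunits, the 15 largest changes and 15 lowest p in each direction, called list members or else the 4 with the lowest p, and the 6 lowest p of each difference in each direction. Markers of the gate were also named. Some genes that the rule selects are not reported here. Lists are described by counts and medians, with no test. Alternatives were other scalings, filters, tests (DESeq2 1.42.0, limma-voom 3.58.1), covariates, a replicate block, a test against a fold of 1.5 and leaving out libraries. Promoters are from RefSeq.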

Additional observations from a re-analysis of the deposited data

Results flagged for a closer look

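In 238 groups of 4 values, each the 4 controls or the 4 knockouts of a gene or a list sum named for LSK CreER cells, 17 held a value far from the other 3 by Dixon's criterion. Chance flags about 1 in 20 groups. Control 3 gave 7 of the gene values. It was lowest for Tgfbr3 (39.0 CPM, others 62.4 to 64.3) and Stat5a (121, others 143 to 147), both genes that fell in the knockout. It was highest for F13a1 (258), Il6ra (56.6), Nrp2 (2.46) and Klrb1f (4.81), all genes that rose. It was also lowest for Ccnd1 (53.4, others 90.2 to 91.4), which was not called with CreER. The part of control 3 in these values was not tested, and its summed oxidative phosphorylation genes of complexes II to V, at 8162 CPM against 6868 to 7000, stood apart as well. Knockout 2 was highest for Cd53 (163 CPM) and Il6ra (87.1) and lowest for Eng (108). Knockout 1 was highest for Jade2 (93.4) and for the sum of MHC class II genes (322) and lowest for Ncam1 (5.33). Knockout 3 had the highest sum of MLL, menin, DOT1L and Polycomb genes (3838), control 2 the highest level of Snap47 (19.9), and control 1 the highest sum of STAT5 and cytokine response genes (2084).

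For 26 named genes the knockout effect with Mx1Cre differed from that with CreER by the test of the difference, 20 toward lower and 6 toward higher values with Mx1Cre. Among stem cell factors and markers the differences on the log2 scale were -1.88 for Mycn, -0.74 for Hoxa9, -2.61 for Tek, -0.80 for Eng and -1.87 for Gata1. Among other genes that fell with CreER they were -4.89 for Ptprf, -4.21 for Zfp970, -3.16 for Zfp820, -2.56 for Ppic, -2.33 for Ica1, -1.85 for Tgfbr3, -1.07 for Pdgfrb, -0.94 for H2-Ob and -0.76 for Ltbp3. Among genes that rose with CreER they were -1.98 for Ptpro, -1.83 for Nrp2, -1.67 for Papss2, -1.61 for Klrb1f, -1.22 for Atp1b1 and -0.86 for Il6ra. Genes grouped by their fall or rise with CreER were chosen by values that also enter the difference. The genes higher with Mx1Cre, none of them called with CreER, were Etv4 (5.12), Slc6a9 (2.26), Ccnd1 (1.56), Trp53i11 (1.49), Etv5 (1.36) and Snap47 (0.997). The effect in LSK cells differed from that in progenitors for Tmem119, by 1.36.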

How the results depend on the processing

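With 445 genes called in LSK CreER cells, the count was 33 without knockouts 2 and 3, 231 with the 8 LSK CreER libraries alone, 889 with DESeq2, 6 against a fold of 1.5 and 159 to 714 with 1 library left out. It was 399 to 662 with other scalings, filters, limma-voom, sex as a covariate or the length trend removed. With limma-voom 38.2% of the called genes were higher, and without knockouts 2 and 3 60.6%, against 49.7%. The replicate block, with the numbers as labelled, gave 351 genes, although with CreER it was not settled whether the numbers pair the mice. For the difference between Cre lines, 616 genes became 310 without knockouts 2 and 3, 1229 with DESeq2 and 554 with the replicate block. The count was 386 to 668 with 1 LSK CreER library left out. No Mx1Cre library was left out, and the length trend was not removed for this difference. For the difference between populations, 1 gene became 13 with DESeq2 and 11 with the mouse as replicate block. The count was 43 with that block after exchanging knockouts 2 and 3, and 0 without knockouts 2 and 3. With 1 LSK CreER library left out it was 0 to 4, and no progenitor library was left out. The cause of these shifts was not tested, except that the smaller fits hold fewer samples. Of 1577 values of the 83 genes named, over 19 alternatives, 1336 kept their side of the threshold, 224 lost a call, 17 gained 1 and 0 changed direction. Most of these genes were named for their difference in the same libraries, so their direction was largely fixed in advance. Of 684 list medians, 662 moved by less than the spread between replicates. Leaving out 1 library of a group of 4 can hardly move a mean by that much. This count therefore says little about how stable the lists are. Depth limits genes of a few counts.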
